A study of Mus musculus with 22 samples.

Results

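The E2F transcription factors and the retinoblastoma family were followed through 10 genes: E2f1 to E2f8, Rb1 and Rbl1. Each gene was read from the probe sets that carry its symbol and no other, and a gene with more than 1 such probe set was represented by the brightest, on average over the arrays. All 10 genes were found among the 19938 genes measured this way, and E2f3 alone had 2 such probe sets. The 22 arrays (Affymetrix Mouse Gene 1.0 ST) carried total RNA of the mouse model RIP1-Tag2, or RT2, in which the insulin promoter drives the large T antigen of SV40 in pancreatic beta cells. The labels name that genotype on all 22 arrays, the normal islets included, and give no age, sex or treatment. There were 3 arrays of normal islets, 3 of hyperplastic islets, 3 of angiogenic islets, 5 of islet tumours, 5 of primary tumours labelled Met-like (metastasis-like primaries here) and 3 of liver metastases. The labels do not say how the metastasis-like class was assigned. Stage order below means only the order just listed, and a later class means any class other than normal islets. That order does not place metastasis-like primaries after islet tumours in time. Nothing in the labels says that the arrays of a group come from separate animals, so p-values measure only the spread between these arrays, which may be technical.

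E2F proteins bind DNA as transcription factors at genes needed to enter and complete S phase. E2f1, E2f2 and E2f3 are the activators of the family, E2f4 and E2f5 act mostly as repressors that carry a retinoblastoma family protein, E2f6 represses without one, and the atypical members E2f7 and E2f8 bind DNA without a dimerisation partner and repress the targets of the activators. The retinoblastoma protein pRb, made by Rb1, and its relative p107, made by Rbl1, hold E2F proteins in check until cyclin-dependent kinases phosphorylate them. The large T antigen binds and disables these so-called pocket proteins as well as p53. Several genes of the family, among them E2f1, E2f7, E2f8 and Rbl1, are themselves known targets of E2F in dividing cells.

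Promoters of 7 of the 10 genes were in the RefSeq promoter table (build GRCm38.p6; 250 bases before to 50 after each transcript start). The 8-base E2F motif was searched as TTTCCCGC, TTTCGCGC, TTTGCCGC and TTTGGCGC on both strands. It was present at E2f2, E2f3, E2f7 and Rbl1, that is 4 of the 7 genes, and in 2.6% of the 27025 genes of the table (2.26% of its 32851 promoters). The cell cycle homology region (CHR), a motif of genes expressed late in the cycle, was searched as TTTGAA on both strands, and occurs in 20.2% of the genes. It was present at E2f3, at E2f8 and before a second start of E2f2. The E2F and CHR matches did not overlap, and no E2F match was present in the window of E2f8. The windows before the start of the 3 genes that differed most between islet stages, E2f7, E2f8 and Rbl1, and of E2f3 are shown 5′ to 3′ on the strand of the gene, with E2F and CHR matches in capitals, and a short stretch after the start is shown for E2f2, where its match lies. A match is a description of these letters only. E2f7 lies at chr10:110745189-110745438 on the plus strand, E2f8 at chr7:48881597-48881846 on the minus strand, Rbl1 at chr2:157204535-157204784 on the minus strand, E2f3 at chr13:29986064-29986313 on the minus strand and the E2f2 stretch at chr4:136172294-136172323 on the plus strand.
E2f7: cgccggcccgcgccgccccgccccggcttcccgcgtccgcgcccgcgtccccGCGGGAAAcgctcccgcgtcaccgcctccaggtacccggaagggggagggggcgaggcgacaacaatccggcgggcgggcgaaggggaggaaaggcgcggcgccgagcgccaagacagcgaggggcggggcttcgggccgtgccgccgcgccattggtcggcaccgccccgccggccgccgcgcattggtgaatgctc
E2f8: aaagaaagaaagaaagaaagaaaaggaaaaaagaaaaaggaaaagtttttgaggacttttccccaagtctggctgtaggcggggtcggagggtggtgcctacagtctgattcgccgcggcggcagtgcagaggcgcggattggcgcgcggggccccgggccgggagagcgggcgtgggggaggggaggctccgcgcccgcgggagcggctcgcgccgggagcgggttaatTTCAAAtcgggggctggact
Rbl1: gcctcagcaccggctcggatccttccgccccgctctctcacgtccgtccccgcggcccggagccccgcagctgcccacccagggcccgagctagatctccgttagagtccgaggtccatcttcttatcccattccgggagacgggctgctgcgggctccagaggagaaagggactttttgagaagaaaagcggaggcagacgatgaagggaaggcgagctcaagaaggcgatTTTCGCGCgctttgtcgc
E2f3: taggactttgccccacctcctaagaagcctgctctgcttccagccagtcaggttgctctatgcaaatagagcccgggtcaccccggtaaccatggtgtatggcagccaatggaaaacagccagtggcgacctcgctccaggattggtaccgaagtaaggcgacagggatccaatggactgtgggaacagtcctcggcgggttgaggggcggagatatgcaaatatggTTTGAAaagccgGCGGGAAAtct
E2f2: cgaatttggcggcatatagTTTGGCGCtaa

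The E2F match of E2f7 reads GCGGGAAA, the reverse complement of TTTCCCGC, and lies at -198 to -191 from the start. The same letters lie at -11 to -4 in E2f3, behind a CHR match at -23 to -18. Rbl1 carries TTTCGCGC at -18 to -11, E2f2 carries TTTGGCGC at 40 to 47, and the CHR match of E2f8 lies at -20 to -15. Among genes of the lists used below, the E2F motif was present at 11 of 24 replication and nucleotide synthesis genes with a promoter in the table (45.8%), and CHR at 8 of 11 late cell cycle genes (72.7%).

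The authors' deposited values are log2 intensities, and array medians lay between 7.08 and 7.22. Beta cell markers (8 genes, mean log2 intensity per array) were at 11.4 to 11.5 in normal islets, 11.2 to 11.3 in hyperplastic islets, 10.9 to 11.2 in angiogenic islets and 10.3 to 10.8 in islet tumours. The same 8 markers lay at 8.05 to 8.69 in metastasis-like primaries and at 8.62 to 9.30 in liver metastases. These beta cell markers were thus lower in both of these classes than in the islet groups and islet tumours. Hepatocyte markers (7 of 8 measured) stood at 10.99 to 11.51 in liver metastases, against 7.37 to 7.85 in metastasis-like primaries and 6.68 to 7.12 in islet tumours. Markers of acinar cells (6 of 8 measured) lay at 9.24 to 12.7 in normal islets, 10.8 to 12.8 in hyperplastic islets and 12.2 to 12.5 in islet tumours. In such bulk samples fewer cells of a type and less RNA per cell cannot be told apart. How far these cell mixtures enter the E2F and retinoblastoma family values was not tested.

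All 10 genes differed among the 6 groups by limma's moderated F test over all 19938 genes, with Benjamini-Hochberg adjusted p between 2.79e-08 (E2f3) and 0.00281 (E2f1). That test called 58.7% of all genes. The pairwise tests below are limma contrasts from the same fit, and a difference is called where the adjusted p over all genes is under 0.05. That fit uses 1 estimate of spread per gene over all 22 arrays, so arrays outside a comparison also enter its test. In hyperplastic against normal islets 4 members were called higher and 1 lower, beside 4.46% and 4.17% of all genes. With the code shared by array titles as a replicate block, 7 members were called, beside 2112 of all genes (1722 without it). In angiogenic against hyperplastic islets no member was called in either direction (2.29% of genes were called higher and 0.246% lower), and 1 member had an unadjusted p under 0.05. No member was called in islet tumours against angiogenic islets either, where 3.09% of genes were called higher and 6.45% lower, and none had an unadjusted p under 0.05. Cell markers did differ. In angiogenic against hyperplastic islets fibroblast markers were called higher in 6 of 6, and endothelial and macrophage markers in 4 of 6 each. In islet tumours against angiogenic islets fibroblast markers were called lower in 6 of 6, and hepatocyte and lymphocyte markers in 6 of 7 each. The part of those cells in the member values was not tested. In islet tumours against normal islets 7 members were called higher and 1 lower, beside 13% and 16.1% of all genes. The comparisons of hyperplastic islets and of islet tumours with normal islets share the same 3 normal arrays, so they are not independent. Centring each array on its median moved the split of called genes in these 4 comparisons. It became 781 higher and 1277 lower (890 and 832 as deposited) for hyperplastic against normal islets, 373 and 114 (456 and 49) for angiogenic against hyperplastic islets, 1176 and 1097 (617 and 1286) for islet tumours against angiogenic islets, and 2096 and 4092 (2584 and 3201) for islet tumours against normal islets.

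In metastasis-like primaries against islet tumours 2 members were called higher and 2 lower, beside 12.3% and 14.2% of all genes. In liver metastases against metastasis-like primaries 2 were called higher and none lower, beside 7.8% and 7.87%, and 3 had an unadjusted p under 0.05. In liver metastases against islet tumours 5 were called higher and 2 lower, beside 17.3% and 19.3%. The 2 comparisons with islet tumours as their baseline share those 5 arrays, and both comparisons with liver metastases share those 3. All 3 liver metastases carry the label code I, as do only 1 metastasis-like primary (I-9812) and 1 islet tumour (I-9811). Tissue and code thus cannot be fully told apart there. Within code I, liver metastases differed from I-9812 by 0.31 for E2f1, 1.05 for E2f8, 0.69 for Rbl1 and 0.40 for E2f5. Over all arrays of both groups these differences were -0.09, 0.44, 0.40 and 0.53. Counts over so few genes rested in part on single arrays. Without the islet tumour II-649 or II-6415, 2 members were called between metastasis-like primaries and islet tumours. Without the liver metastasis I-9822, 1 was called between liver metastases and metastasis-like primaries.

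**Figure D1:**
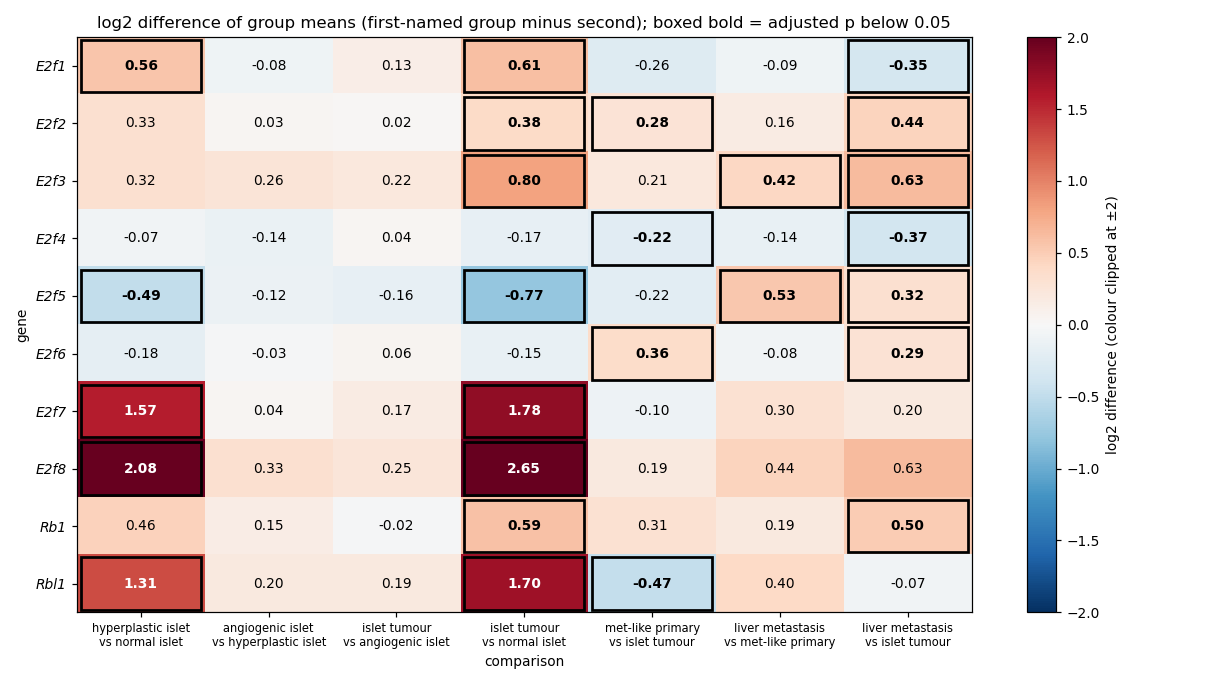
Differences in log2 intensity between group means for the 10 genes (rows) in 7 comparisons (columns), the first-named group minus the second. Boxed bold values had an adjusted p under 0.05 in limma; the largest are 2.08 and 2.65 for E2f8 in hyperplastic islets and islet tumours against normal islets, and the angiogenic against hyperplastic and tumour against angiogenic columns hold no boxed value.

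E2f1, the activator best known for switching on replication genes and, when in excess, apoptosis genes, was higher in hyperplastic islets and in islet tumours than in normal islets. Normal islets read 8.45, 8.34 and 7.89 log2 units (NormalI-93, Normal2006 and Normal2007), hyperplastic islets 8.88, 8.83 and 8.65, and angiogenic islets 8.65, 8.68 and 8.78. Islet tumours read 8.69, 8.96, 8.83, 8.88 and 8.82, metastasis-like primaries 8.18, 8.63, 8.67, 8.63 and 8.79, and the 3 liver metastases 8.46 to 8.51. The hyperplastic and normal arrays did not overlap, while the metastasis-like primary I-9812 at 8.18 lay below every array other than Normal2007. Hyperplastic islets exceeded normal islets by 0.56 ± 0.14 (log2 difference ± SE, 1.47-fold, adjusted p = 0.0104) and islet tumours exceeded normal islets by 0.61 ± 0.12 (adjusted p = 0.000553). Liver metastases were lower than islet tumours, with a log2 difference of -0.35 ± 0.12 (adjusted p = 0.0282). The hyperplastic difference missed the threshold without Normal2007 (adjusted p = 0.083) or HyperplasticI-93 (0.054), and the metastasis difference without the islet tumour II-649 (0.0602) or any 1 of the 3 metastases (0.0639 to 0.084). With the label code as a replicate block, the difference of islet tumours from normal islets had an adjusted p of 0.219. The metastasis difference then had one of 0.686, and islet tumours share only code I with either group. Metastasis-like primaries differed from islet tumours by -0.26 ± 0.10 (adjusted p = 0.0808). That difference passed under some alternatives, among them without Normal2007 (0.0416) or the primary III-8023 (0.0424), and its lowest adjusted p was 0.0271.

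E2f2, an activator that overlaps E2f1 and E2f3 in function, had its highest values in metastasis-like primaries and liver metastases. It read 7.14, 7.03 and 7.05 in normal islets, 7.34 to 7.47 in hyperplastic islets, 7.34 to 7.55 in angiogenic islets and 7.38 to 7.57 in islet tumours. Metastasis-like primaries spread from 7.37 (I-9812) over 7.54 (II-648), 7.75 (II-6413) and 7.93 (III-8016) to 8.07 (III-8023), and liver metastases read 7.84, 7.96 and 7.88. Liver metastases thus stood above all islet tumours, while the spread of the metastasis-like primaries took in the tumour range at its low end. Against islet tumours, E2f2 was higher in liver metastases by 0.44 ± 0.11 (log2 difference ± SE, adjusted p = 0.00331) and in metastasis-like primaries by 0.28 ± 0.10 (adjusted p = 0.0358). The second call was lost without any 1 of 7 arrays: the islet tumours I-9811, II-649, II-6415 and III-8017 (adjusted p = 0.0722, 0.0633, 0.063 and 0.0578) and the primaries II-6413, III-8016 and III-8023 (0.06, 0.104 and 0.123). It was also lost in a fit of these 10 arrays alone (adjusted p = 0.127), with array weights (0.142) and in a fit over all probe sets (0.0515). Islet tumours exceeded normal islets by 0.38 ± 0.11 (adjusted p = 0.0125, and 0.0525 without Normal2006). That call was also lost with the label code as a replicate block (adjusted p = 0.497), though these 2 groups share only code I. The difference between hyperplastic and normal islets, 0.33 ± 0.12, had an adjusted p of 0.12, and of 0.0411 with the shared islet code as a replicate block.

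E2f3, the activator most tied to proliferation in many tissues, had group means that rose in the order in which the groups are listed here. Its log2 intensities were 7.18, 7.14 and 6.99 in normal islets, 7.497, 7.22 and 7.57 in hyperplastic islets and 7.57, 7.86 and 7.64 in angiogenic islets. Islet tumours read 7.91, 7.68, 7.91, 7.92 and 8.10, metastasis-like primaries 7.93, 8.13, 8.23, 8.11 and 8.21, and liver metastases 8.35, 8.48 and 8.79. The 3 normal islets were the lowest arrays, and all liver metastases lay above all other arrays. Islet tumours exceeded normal islets by 0.80 ± 0.11 (log2 difference ± SE, 1.74-fold, adjusted p = 8.95e-06). Liver metastases exceeded islet tumours by 0.63 ± 0.11 (adjusted p = 0.000106) and metastasis-like primaries by 0.42 ± 0.11 (adjusted p = 0.012), the last of these at adjusted p = 0.123 without the metastasis I-9822. Single steps between hyperplastic and normal islets (0.32 ± 0.12, adjusted p = 0.124) and between metastasis-like primaries and islet tumours (0.21 ± 0.10, adjusted p = 0.111) were not called. The second probe set of E2f3, dimmer on average, gave 0.66 (adjusted p = 0.000676) for hyperplastic against normal islets, so the 2 probe sets disagree on whether that step passes, and 0.94, 0.60 and 0.38 for the 3 differences called above, in the same order. With both probe sets averaged the hyperplastic step had an adjusted p of 0.0021 and the metastasis-like step one of 0.0407.

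**Figure D2:**
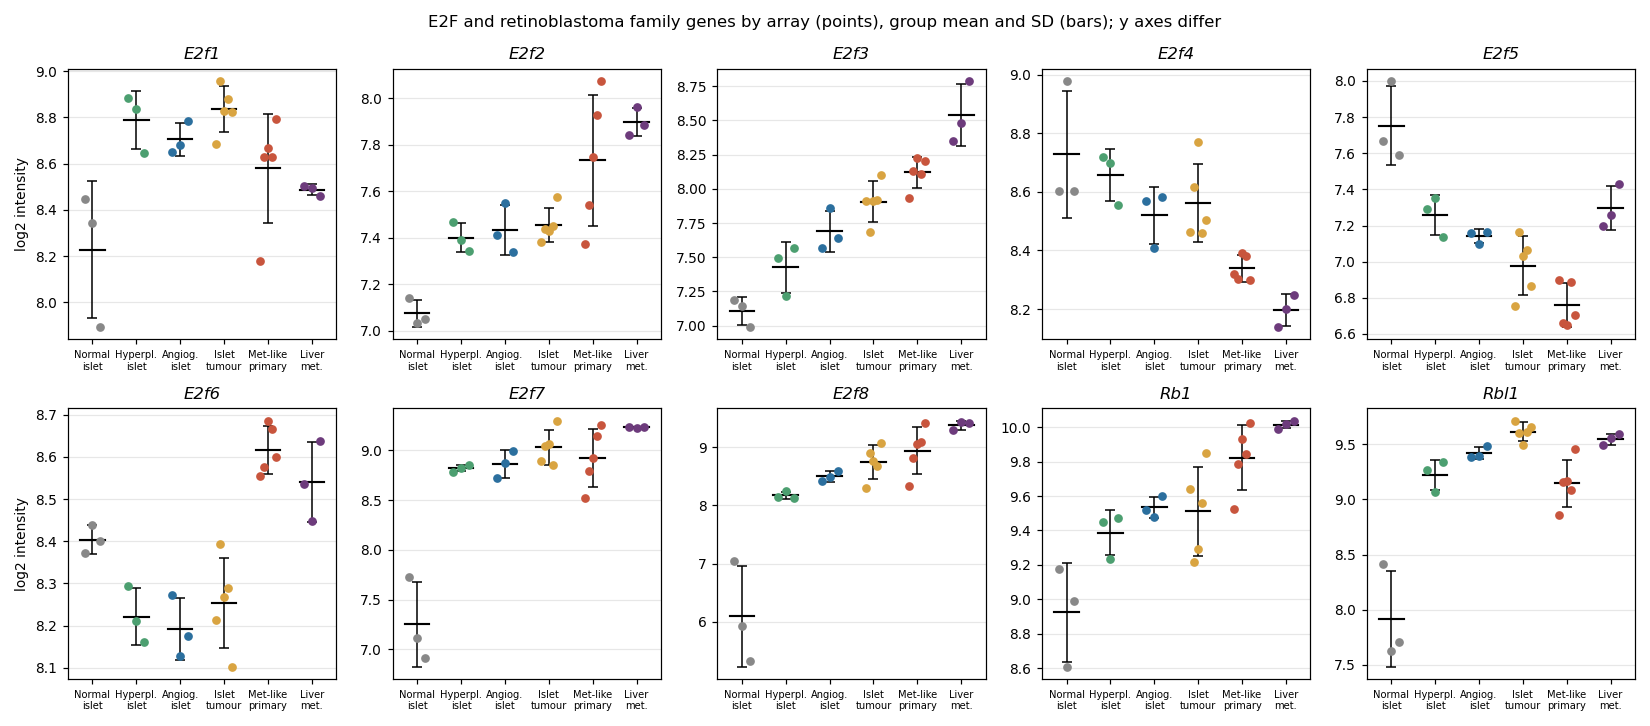
Log2 intensity of the 10 genes on each of the 22 arrays (points), by group in stage order, with group mean and SD (bars, n = 3 to 5); the y axes differ between panels. E2f7, E2f8 and Rbl1 have their lowest points in the 3 normal islets, the group means of E2f3 rise from left to right, and E2f5 is highest in normal islets.

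E2f4, the most abundant E2F of resting cells and a main carrier of the pocket proteins, was lowest in the liver metastases. It read 8.60 to 8.98 in normal islets, 8.56 to 8.72 in hyperplastic islets, 8.41 to 8.58 in angiogenic islets and 8.46 to 8.77 in islet tumours. Metastasis-like primaries read 8.32, 8.30, 8.39, 8.38 and 8.30, and liver metastases 8.14, 8.20 and 8.25. Neither of these classes overlapped the islet tumours. Against islet tumours the log2 difference was -0.37 ± 0.09 in liver metastases (adjusted p = 0.00245) and -0.22 ± 0.08 in metastasis-like primaries (adjusted p = 0.0343). The smaller of these was lost without the islet tumours II-649 (adjusted p = 0.073) or II-6415 (0.109), or without the primaries I-9812 (0.0629), II-648 (0.0692) or III-8023 (0.0695). The larger was lost with the label code as a replicate block (adjusted p = 0.0527). Islet stages did not differ by the test: hyperplastic against normal islets gave -0.07 ± 0.10 (adjusted p = 0.772) and islet tumours against normal islets -0.17 ± 0.09 (adjusted p = 0.182).

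E2f5, a repressor partner of p130 and p107 that also serves the multiciliated cell programme together with E2f4, had its highest level in normal islets. Normal islets read 7.67, 8.0 and 7.59, hyperplastic islets 7.29, 7.35 and 7.14, and angiogenic islets 7.16, 7.10 and 7.17. Islet tumours read 6.76, 7.17, 7.03, 7.07 and 6.87, metastasis-like primaries 6.90, 6.66, 6.65, 6.89 and 6.70, and liver metastases 7.20, 7.26 and 7.43. The normal arrays lay above all others, and the liver metastases lay above all islet tumours and metastasis-like primaries. Against normal islets the log2 difference was -0.49 ± 0.12 in hyperplastic islets (1.41-fold higher in normal islets, adjusted p = 0.00793) and -0.77 ± 0.10 in islet tumours (1.71-fold higher in normal islets, adjusted p = 5.59e-06). Liver metastases exceeded metastasis-like primaries by 0.53 ± 0.10 (adjusted p = 0.00105) and islet tumours by 0.32 ± 0.10 (adjusted p = 0.0195). The hyperplastic call was lost without Normal2006 (adjusted p = 0.0683) or Hyperplastic2007 (0.0537), and the call against islet tumours without the tumour I-9811 (0.051) or the metastasis I-9822 (0.12). The call of liver metastases against islet tumours was also lost with the label code as a replicate block. The difference between metastasis-like primaries and islet tumours, -0.22 ± 0.09, had an adjusted p of 0.0792, and passed without Normal2006 (0.0477) or the tumour I-9811 (0.0268) and with array weights (0.048).

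E2f6, which represses as part of a variant Polycomb complex that keeps germline genes silent outside the germline, divided the arrays in another way. It read 8.37, 8.44 and 8.40 in normal islets, 8.16 to 8.29 in hyperplastic islets, 8.13 to 8.27 in angiogenic islets and 8.10 to 8.39 in islet tumours. Metastasis-like primaries read 8.55, 8.58, 8.69, 8.67 and 8.60, and liver metastases 8.54, 8.45 and 8.64. All arrays of these 2 classes lay above all islet tumours. Against islet tumours E2f6 was higher by 0.36 ± 0.06 in metastasis-like primaries (log2 difference ± SE, 1.29-fold, adjusted p = 8.62e-05) and by 0.29 ± 0.07 in liver metastases (adjusted p = 0.00257). Within the label codes I, II and III the excess of metastasis-like primaries over islet tumours was 0.34, 0.30 and 0.44. Islet tumours differed from normal islets by -0.15 ± 0.07 (adjusted p = 0.117), which passed after median centring (0.0226). In metastasis-like primaries against islet tumours 12.3% of all genes were called higher and 14.2% lower. Of the 9 partners of E2f6 in that complex, 2 were called higher and 5 lower there (list median -0.21, beside -0.02 over all genes). Without the islet tumour II-649 this count was 1 and 3, and in a fit of the compared arrays alone 1 and 2. Cbx3, a heterochromatin protein of the complex, was higher by 0.36 ± 0.08 (adjusted p = 0.00158), while Mga, its DNA-binding scaffold, was lower with a difference of -0.30 ± 0.08 (adjusted p = 0.00514). Of 5 germline genes known to be held down by E2f6, 1 was called higher and none lower (list median -0.05, beside 12.3% of all genes called higher), namely the cohesin gene Stag3 (0.55 ± 0.18, adjusted p = 0.0236). That count was 0 in a fit of the compared arrays, with array weights, and without the islet tumours II-6415, III-8017 or III-8024 or the primaries II-6413 or III-8016. The germline list averaged 5.76 in islet tumours and 5.80 in metastasis-like primaries. Array medians lay at 7.08 to 7.22, so at such low signal few calls say little.

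E2f7 and E2f8, the atypical repressors, showed the largest differences of the family. E2f7 read 7.73, 7.11 and 6.91 in normal islets (NormalI-93, Normal2006 and Normal2007), against which the 3 hyperplastic islets read 8.79, 8.83 and 8.85. Angiogenic islets read 8.72, 8.88 and 8.999, islet tumours 8.85 to 9.30, metastasis-like primaries 8.52 to 9.25 and liver metastases 9.23, 9.23 and 9.24. Every array of a later class stood above the highest normal array. E2f7 was 2.97-fold higher in hyperplastic than in normal islets (log2 difference 1.57 ± 0.18, adjusted p = 8.37e-06) and 3.44-fold higher in islet tumours than in normal islets (1.78 ± 0.16, adjusted p = 2.97e-08). None of its other 5 comparisons was called, with adjusted p between 0.219 and 0.944.

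E2f8 read 7.04, 5.93 and 5.32 in normal islets, so NormalI-93 was again the highest of the 3. Hyperplastic islets read 8.15, 8.25 and 8.12, angiogenic islets 8.42, 8.48 and 8.60, and islet tumours 8.30, 8.91, 8.77, 8.68 and 9.08. Metastasis-like primaries read 8.32, 8.82, 9.06, 9.08 and 9.41, and liver metastases 9.29, 9.43 and 9.42. As for E2f7, no array of another class came down to the normal range, and here the group means rose in the listed order. E2f8 was 4.21-fold higher in hyperplastic than in normal islets (log2 difference 2.08 ± 0.29, adjusted p = 4.79e-05) and 6.28-fold higher in islet tumours than in normal islets (2.65 ± 0.26, adjusted p = 1.06e-07). The spread was unequal: its SD was 0.87 in normal and 0.07 in hyperplastic islets (n = 3 each), while the SE rests on the spread shared by all groups. For E2f7 these SDs were 0.43 and 0.03, and for Rbl1 0.43 and 0.14. Within the shared codes the excess of hyperplastic over normal islets was 1.11 for the pair with NormalI-93, 2.32 for that with Normal2006 and 2.80 for that with Normal2007. Liver metastases differed from islet tumours by 0.63 ± 0.26 (adjusted p = 0.0645). That difference passed under some alternatives, with a lowest adjusted p of 0.00532, and a fit of those 8 arrays alone gave 0.00755. It also passed without NormalI-93 (0.0118), Normal2007 (0.0276), the islet tumour III-8024 (0.0467) or the metastasis-like primary I-9812 (0.0475).

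Rb1, which encodes the retinoblastoma protein itself, was not low in any tumour class. Normal islets read 9.17, 8.61 and 8.99, hyperplastic islets 9.45, 9.24 and 9.47, and angiogenic islets 9.52, 9.48 and 9.60. Islet tumours read 9.64, 9.22, 9.29, 9.56 and 9.85, metastasis-like primaries 9.53, 9.79, 9.93, 9.84 and 10.03, and liver metastases 9.99, 10.02 and 10.04. Every array of a later class lay above the 3 normal islets, and the liver metastases lay above all islet tumours. Rb1 was higher by 0.59 ± 0.14 in islet tumours than in normal islets (log2 difference ± SE, 1.504-fold, adjusted p = 0.00203) and by 0.50 ± 0.14 in liver metastases than in islet tumours (1.42-fold, adjusted p = 0.00558). The first of these calls was lost with the label code as a replicate block (adjusted p = 0.0925), though its 2 groups share only code I. Hyperplastic islets exceeded normal islets by 0.46 ± 0.15 (adjusted p = 0.0629), and at adjusted p = 0.0277 with the shared islet code as a replicate block. That comparison also passed without NormalI-93 (adjusted p = 0.0269), the islet tumours II-649 (0.0481) or III-8024 (0.0423), or the metastasis-like primary I-9812 (0.0488). The difference of metastasis-like primaries from islet tumours, 0.31 ± 0.12 (adjusted p = 0.0561), passed without NormalI-93 (0.0466), Normal2006 (0.035), the islet tumour III-8024 (0.014) or the primary I-9812 (0.0197).

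Rbl1, whose product p107 appears in dividing cells, read 8.41, 7.63 and 7.71 in normal islets, 9.27, 9.07 and 9.34 in hyperplastic islets and 9.39, 9.39 and 9.49 in angiogenic islets. Islet tumours read 9.71, 9.60, 9.49, 9.61 and 9.66, metastasis-like primaries 8.86, 9.16, 9.17, 9.08 and 9.46, and liver metastases 9.49, 9.56 and 9.59. The normal islets lay below all other arrays, and all 5 metastasis-like primaries lay below all 5 islet tumours. Rbl1 was 2.47-fold higher in hyperplastic than in normal islets (log2 difference 1.31 ± 0.15, adjusted p = 1.2e-05) and 3.25-fold higher in islet tumours than in normal islets (1.70 ± 0.14, adjusted p = 1.11e-08). Metastasis-like primaries were lower than islet tumours, with a log2 difference of -0.47 ± 0.12 (1.39-fold higher in islet tumours, adjusted p = 0.00468), which was -0.86, -0.38 and -0.36 within the label codes I, II and III. Liver metastases differed from metastasis-like primaries by 0.40 ± 0.14 (adjusted p = 0.0521), which passed without NormalI-93 (0.00848), Normal2006 (0.0377), Normal2007 (0.0483) or the primary III-8023 (0.0181), and from islet tumours by -0.07 ± 0.14 (adjusted p = 0.747).

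Taking the members together at the first step, the hyperplastic and normal arrays did not overlap for 9 of the 10 genes (28.4% of all genes), E2f4 being the exception. The liver metastases and islet tumours did not overlap for 8 of the 10 (37.3% of all genes). When the 6 groups were ordered by mean for each gene, 50 neighbouring steps arose, and in 34 of them the 2 groups overlapped. In exact two-sided permutation tests 6 steps had an unadjusted p under 0.05, the smallest being 0.0159, and none passed after Benjamini-Hochberg adjustment over the 50 steps, where the smallest was 0.217. Between 2 groups of 3 arrays that test cannot go below 0.1. With groups this small no step could have passed that adjustment, so its outcome decides nothing. The steps also join groups that were ordered by these same values. Of the 16 steps without overlap, E2f3 and Rbl1 held 3 each. These counts of steps were not made over all genes, so nothing is read from them.

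Across the 22 arrays E2f7 followed E2f8 (Pearson r = 0.97) and Rbl1 (0.95), and E2f8 followed Rbl1 (0.90), each as a description in which the 3 normal arrays lie far from the rest. The genes whose pattern was most like that of E2f8 were H1f5, Sass6 and Fbxo5 (r = 0.99 each), and for E2f7 they were Mms22l, Chaf1a and Atad2 (0.99 each). For Rbl1 they were Fanca, Knstrn and Ints7 (0.98, 0.97 and 0.97), and for E2f3 they were Purb, Hnrnpd and Tent4a (0.96, 0.95 and 0.95). For Rb1 they were Dis3, Pspc1 and Esco2 (0.97, 0.96 and 0.95), and for E2f2 Fam168b, Ctdspl2 and Atf7ip2 (0.95, 0.93 and 0.93). For E2f4 they were Ccdc130, Tmem35b and Mrpl10 (0.95, 0.93 and 0.93), for E2f5 Msmo1, Dcaf13 and S100a1 (0.94, 0.93 and 0.92), and for E2f6 Osbpl6, Mturn and St7 (0.93, 0.92 and 0.92). E2f1 had the loosest match of the family in Primpol, Cep57l1 and Cenpm (0.88, 0.88 and 0.87).

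The E2F target genes of replication and nucleotide synthesis were higher where E2f7, E2f8 and Rbl1 were, that is in hyperplastic against normal islets. Of all genes 4.46% were called higher in hyperplastic than in normal islets. All 28 measured of 30 listed were called higher there, with a list median of 1.63 in log2 difference beside -0.01 over all genes. Among them Mcm6 and Mcm7, subunits of the replicative helicase, were higher by 1.91 ± 0.20 (adjusted p = 5.66e-06) and 1.61 ± 0.17 (adjusted p = 6.26e-06). Brca1, a DNA repair gene, was higher by 1.83 ± 0.20 (adjusted p = 8.37e-06). None of the 28 was called in angiogenic against hyperplastic islets (median 0.14 beside -0.04) or in islet tumours against angiogenic islets (median 0.06 beside 0.05). Of the late cell cycle genes bound by the DREAM and MuvB complexes, 14 of 14 measured were called higher in hyperplastic than in normal islets (median 1.91). Among these Cdk1, the mitotic kinase, was higher by 2.12 ± 0.22 and Ccna2, cyclin A, by 2.34 ± 0.29 (adjusted p = 6.26e-06 and 1.77e-05). In islet tumours against normal islets all 28 and all 14 were called higher, with medians of 1.8 and 2.30 beside -0.01 over all genes. Of all genes 13% were called higher there.

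The mean log2 intensity of the 28 replication genes was 7.92 in NormalI-93, 7.22 in Normal2006 and 6.99 in Normal2007, and between 8.79 (the metastasis-like primary I-9812) and 9.48 (the metastasis I-9821) on the other 19 arrays. NormalI-93 thus stood above the other normal islets for this list as for E2f7, E2f8 and Rbl1, and remained below every later array. E2f1 was lower in the liver metastases than in the islet tumours, a call that was lost without any 1 of the 3 metastases. In the same comparison 13 of the 28 replication genes were called higher and none lower, or 8 of 28 without the metastasis I-9821. The list median was 0.29 beside -0.03 over all genes, of which 17.3% were called higher. Brca1 was higher by 0.86 ± 0.18 (adjusted p = 0.000806) and Ezh2, the Polycomb methyltransferase and an E2F target, by 0.73 ± 0.17 (adjusted p = 0.00189). Between metastasis-like primaries and islet tumours none of the 28 was called (median 0.02), beside 12.3% of all genes called higher and 14.2% lower. The count was 3 without NormalI-93, 2 without the primary I-9812 and 1 without Normal2007 or the tumour II-649. Of the 14 late cell cycle genes, 6 were called higher in liver metastases than in islet tumours and none lower (median 0.57), against 3 without the metastasis I-9821 and 10 without NormalI-93.

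**Figure D3:**
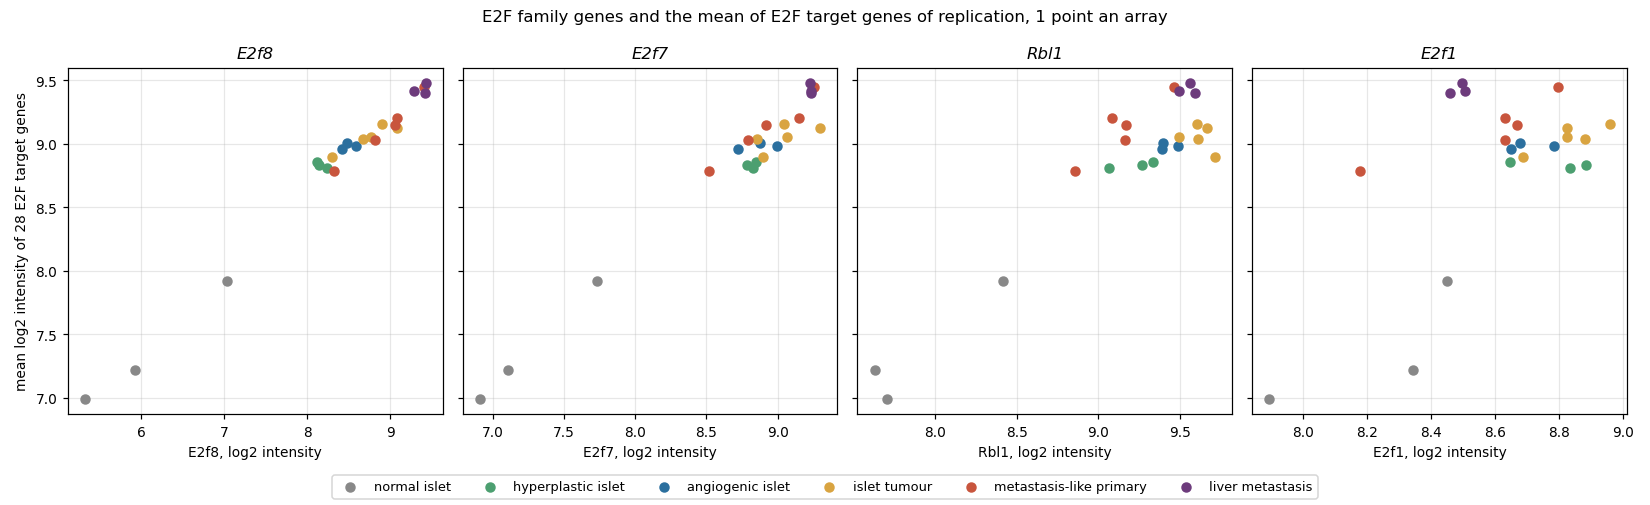
Mean log2 intensity of 28 E2F target genes of replication and nucleotide synthesis (y) against the log2 intensity of E2f8, E2f7, Rbl1 and E2f1 (x), 1 point an array, coloured by group in stage order. For E2f8 the points lie between the 3 normal islets at lower left (6.99 to 7.92 on y) and the liver metastases at upper right (9.40 to 9.48 on y), while for E2f1 the liver metastases lie left of the islet tumours at higher y.

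The dimerisation partner Tfdp1, which pairs with E2F1 to E2F6 proteins on DNA, was higher by 0.49 ± 0.10 in hyperplastic than in normal islets (adjusted p = 0.00229) and by 0.33 ± 0.09 in liver metastases than in islet tumours (adjusted p = 0.00524). Rbl2, which encodes the third pocket protein p130, stood at 8.43 in islet tumours, against 8.67 in normal islets, a difference of -0.23 ± 0.09 (adjusted p = 0.0519). It passed with median centring (0.0201), without dim genes (0.0405), with array weights (0.0337), and without Normal2006 (0.0218), HyperplasticI-93 (0.0497) or Hyperplastic2006 (0.0247), and it was not called in the other 6 comparisons. Of 7 genes of the MuvB core with Mybl2 and Foxm1, 4 were called higher in hyperplastic than in normal islets and none lower (median 0.77). Of all genes 4.46% were called higher there. Foxm1, which drives mitotic genes, was higher by 1.52 ± 0.19 (adjusted p = 1.7e-05) and Lin9, a MuvB subunit, by 1.52 ± 0.21 (adjusted p = 4.28e-05).

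In hyperplastic against normal islets 4.46% of all genes were called higher and 4.17% lower. Of the 8 cyclins and kinases that act on the pocket proteins, 3 were called higher and 3 lower at that step. The D-type cyclins Ccnd1 and Ccnd2 were lower, with differences of -1.58 ± 0.13 (adjusted p = 2.8e-07) and -1.69 ± 0.20 (adjusted p = 1.2e-05), while the E-type cyclin Ccne2 was higher by 1.43 ± 0.19 (adjusted p = 3.52e-05). Ccnd2 stood at 8.88 ± 0.24 in islet tumours, against 12.79 ± 0.07 in normal islets (SD, n = 5 and 3), a difference of -3.90 ± 0.18 (SE, adjusted p = 3.76e-12). Of 6 measured kinase inhibitors, 5 were called higher in hyperplastic than in normal islets and none lower (median 0.63), and 3 without Normal2007 or without HyperplasticI-93. Cdkn2c, which blocks the kinases of the D cyclins, was higher by 2.18 ± 0.28 (adjusted p = 2.18e-05), and Cdkn2a, which encodes another inhibitor of those kinases and Arf, by 1.34 ± 0.17 (adjusted p = 2.13e-05). Lymphocyte markers (7 of 8 measured) spread from 6.79 to 8.21 in hyperplastic islets, against 6.36 to 6.45 in normal islets, with 0 of 7 called. Macrophage markers (6 genes) were called higher in 2 of 6, at 7.53 to 7.80 in hyperplastic islets, against 7.19 to 7.42 in normal islets, and beta cell markers in neither direction (0 of 8). In islet tumours against normal islets 13% of all genes were called higher and 16.1% lower. Macrophage markers were called higher there in 5 of 6 and fibroblast markers in 3 of 6, and beta cell markers lower in 5 of 8. The part of these cells in the differences from normal islets was not tested.

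**Figure D4:**
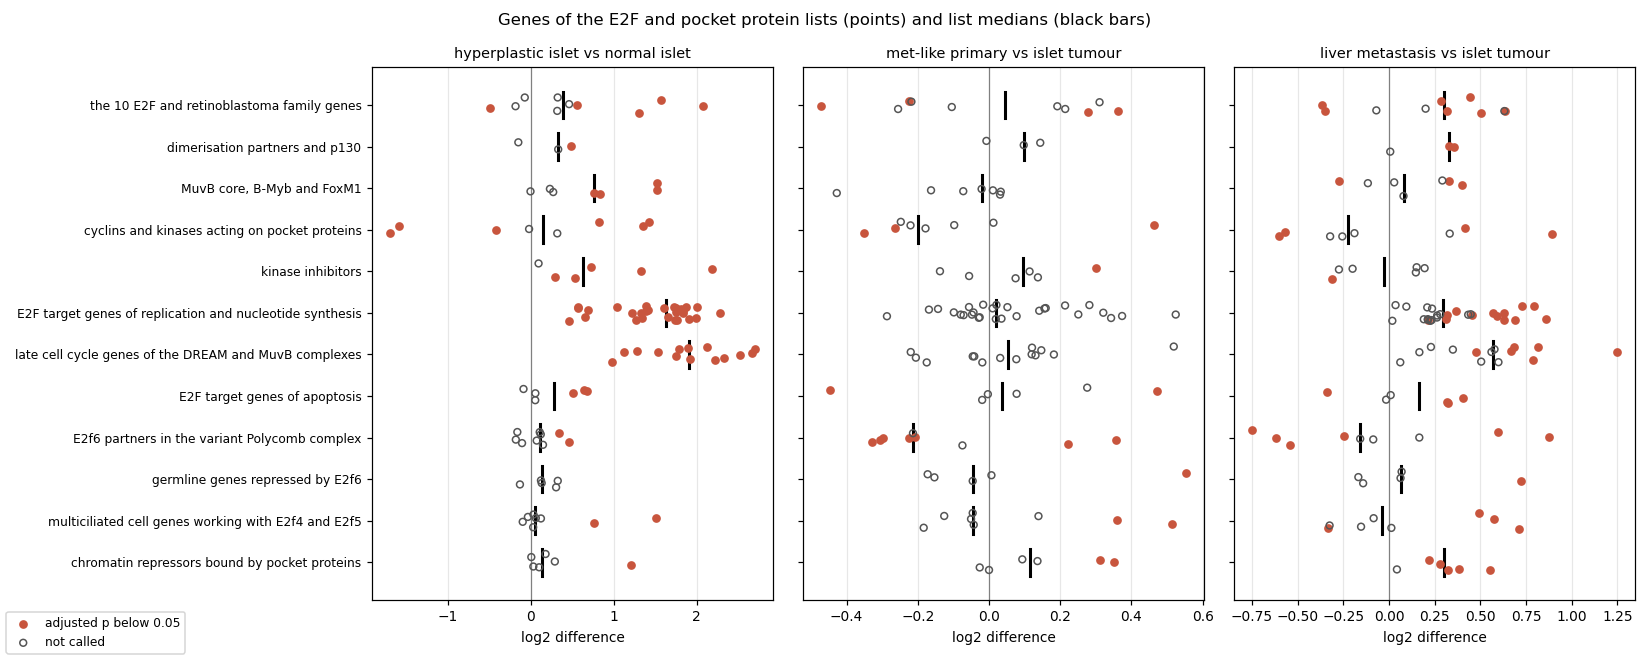
Log2 differences of the 10 genes and of the genes of 11 pathway lists (points, filled where the adjusted p was under 0.05) with list medians (bars), in hyperplastic against normal islets, metastasis-like primaries against islet tumours and liver metastases against islet tumours. The replication and late cell cycle lists lie right of 0 in the first panel, with medians of 1.63 and 1.91, and centre near 0 in the second, with medians of 0.02 and 0.05.

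In metastasis-like primaries against islet tumours 2 of 6 measured chromatin repressors bound by pocket proteins were called higher and none lower (median 0.11, beside 12.3% of all genes called higher), of which Arid4a, a pRb-binding protein, was higher by 0.35 ± 0.06 (adjusted p = 0.000242). The count was 1 of 6 without the islet tumours I-9811, II-649 or III-8017 or the primaries II-6413, III-8016 or III-8023, and with array weights. In liver metastases against islet tumours 5 of 6 were called higher and none lower (median 0.30 beside -0.03 over all genes, of which 17.3% were called higher). Dnmt1 was higher by 0.56 ± 0.12 (adjusted p = 0.0013) and Sin3a by 0.38 ± 0.09 (adjusted p = 0.00154). Of 8 multiciliated cell genes that work with E2f4 and E2f5, 2 were called higher in metastasis-like primaries than in islet tumours and none lower (list median -0.04 beside -0.02 over all genes, of which 12.3% were called higher). They were Ccno, higher by 0.51 ± 0.09 (adjusted p = 0.000209) and Mcidas, higher by 0.36 ± 0.07 (adjusted p = 0.000405). The shares of all genes called higher and lower were 17.3% and 19.3% in liver metastases against islet tumours. They were 12.3% and 14.2% in metastasis-like primaries against islet tumours, and 7.8% and 7.87% in liver metastases against metastasis-like primaries. In liver metastases against islet tumours hepatocyte markers were called higher in 7 of 7 genes, and markers of acinar cells were lower in 6 of 6, of beta cells in 7 of 8, of endothelial cells in 5 of 6 and of macrophages in 5 of 6. In metastasis-like primaries against islet tumours markers of beta cells were lower in 8 of 8 and of endothelial cells in 5 of 6, and hepatocyte markers higher in 2 of 7. In liver metastases against metastasis-like primaries hepatocyte markers were higher in 6 of 7 and beta cell markers in 3 of 8, and markers of acinar cells and macrophages were lower in 4 of 6 each. The part of those cells in the E2F and retinoblastoma family differences between the tumour classes was not tested.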

How the data were processed

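The 22 arrays measured total RNA; the authors deposited 1 log2 expression value per probe set and array, processed with aroma.affymetrix per the labels' design text, with background and normalization steps not given in the sources used here. Of 35511 probe sets, 21789 carried 1 gene symbol, 1621 several and the rest none, giving 19938 genes by highest mean. One limma fit (limma 3.58.1, R 4.3.3) over the 6 groups gave 7 contrasts and an F test, adjusted by Benjamini-Hochberg over all genes and tested on simulated data. Groups came from the tissue labels, with no replicate block. All 10 members were named, with up to 4 genes of each pathway list by smallest adjusted p, and the 3 genes most correlated with each member. Members and lists were chosen with earlier results of these data known. Codes shared by hyperplastic and normal islets paired arrays (r of deviations 0.197 to 0.448 for the same code, -0.368 to -0.058 otherwise), as did those of angiogenic and hyperplastic islets (0.353 to 0.479, and -0.393 to -0.062). Deviations from a group mean cancel within the group, so the negative r of other codes are partly forced. The number of arrays limits the precision.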

Additional observations from a re-analysis of the deposited data

Results flagged for a closer look

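E2f1 in the metastasis-like primary I-9812 read 8.18 log2 units, far below the other 4 arrays of its group, of which the nearest read 8.63. The gap was 0.732 of the group's range, beyond Dixon's critical value of 0.71 for 5 arrays. It was 1 of 20 groups of values tested, and chance marks about 1 in 20. The same array was the lowest of its group for the replication gene mean (8.79), E2f2 (7.37), E2f3 (7.93), E2f6 (8.55), E2f7 (8.52), E2f8 (8.32), Rb1 (9.53) and Rbl1 (8.86). It was the highest of its group for E2f5 (6.90) and in the middle for E2f4 (8.32). The cause was not tested.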

How the results depend on the processing

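Of 70 tests of members, 26 passed; 15 of these passed under every alternative other than a minimum difference of 1 log2 unit, 11 were lost under at least 1 alternative, 12 others were gained under at least 1, and 0 changed direction where either value was called. With that minimum, 3 members were called in hyperplastic against normal islets (5 without it), 3 in islet tumours against normal islets (8), and 0 in metastasis-like primaries against islet tumours (4), in liver metastases against metastasis-like primaries (2) and in liver metastases against islet tumours (7). With a replicate block, 5 members were called in islet tumours against normal islets, beside 4470 of all genes (5785 without it). In liver metastases against metastasis-like primaries it gave 4, beside 2892 of all genes (3126 without it). In hyperplastic against normal islets, where codes paired the arrays, the block gave 7 calls, beside 2112 of all genes (1722 without it). It added E2f2 (adjusted p = 0.0411) and Rb1 (0.0277), and it changed no member call in angiogenic against hyperplastic islets.

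Islet tumours share only code I with the islet groups and with liver metastases, so pairing could not be checked there, and between metastasis-like primaries and islet tumours not every same-code pair correlated (-0.0874 to 0.206, against -0.278 to 0.167 for other pairs). The block took the adjusted p of E2f1, E2f2 and Rb1 in islet tumours against normal islets to 0.219, 0.497 and 0.0925, and of E2f1, E2f4 and E2f5 in liver metastases against islet tumours to 0.686, 0.0527 and 0.0571. It turned the replication list's median to -0.37 in islet tumours against angiogenic islets (0.06 without it), with 3 of 28 called lower, and gave Rbl2 an adjusted p of 0.0118 in islet tumours against normal islets and 0.0446 against angiogenic islets. Leaving out 1 array gave 4 to 6, 0 to 0, 0 to 0, 7 to 8, 2 to 6, 1 to 3 and 5 to 8 member calls in the 7 comparisons in the order of the plot of differences, and 10 to 10 for the test of any difference. The counts over all genes in those leave-one-out fits lay at 275 to 869 for angiogenic against hyperplastic islets (505 with all arrays), 732 to 2228 for islet tumours against angiogenic islets (1903) and 1950 to 3415 for liver metastases against metastasis-like primaries (3126). Array weights gave 930 and 5377 for the first and last of these, and a fit of the compared arrays gave 768 for the second. With the 1 log2 minimum the 7 counts were 343, 114, 243, 905, 745, 454 and 1204. Rb1 also passed after quantile normalization in hyperplastic against normal islets (0.0432) and in metastasis-like primaries against islet tumours (0.0492, and 0.0455 without dim genes), and Rbl1 in liver metastases against metastasis-like primaries in 5 settings (0.0168 to 0.0478). In that last comparison E2f2 and E2f8 also passed under at least 1 alternative, with lowest adjusted p of 0.037 and 0.032. The causes were not tested.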

Other observations

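Of 8 listed E2F targets of apoptosis, 6 were measured. In hyperplastic against normal islets 3 were called higher and none lower (median 0.28 beside -0.01 over all genes, of which 4.46% were called higher). Bcl2l11, which encodes the death promoter Bim, was higher by 0.67 ± 0.12 (log2 difference ± SE, limma adjusted p = 0.000575), and Casp8ap2, a caspase-8 binding protein, by 0.64 (adjusted p = 0.000684). In metastasis-like primaries against islet tumours 1 was called higher and 1 lower, beside 12.3% and 14.2% of all genes. The lower one was Bcl2l11, with a difference of -0.45 (adjusted p = 0.000779). Plk4, which starts centriole duplication and is listed with the multiciliated cell genes, was higher by 1.52 in hyperplastic than in normal islets (adjusted p = 4.21e-05), while 6 of the 8 genes of that list were called in neither direction.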
